A study of Mus musculus with 89 samples.

Results

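The genes described here are 10 members of the endoplasmic reticulum (ER) stress response in mouse lung: Hspa5, Hsp90b1, Pdia4, Sdf2l1, Dnajb9, Herpud1, Creld2, Ddit3, Trib3 and Xbp1. They were taken by name, each represented by its probe set with the highest mean over 89 arrays, and they are 10 of the 17097 genes with an annotated probe set, all of them among the 15065 genes tested. Secreted and membrane proteins fold in the ER, and the unfolded protein response is the set of signals that adjusts its folding capacity. The sensors ATF6 and IRE1 raise the transcription of chaperones and of the machinery that removes misfolded proteins, IRE1 by splicing the Xbp1 messenger RNA, while the sensor PERK slows translation and raises ATF4, which induces Ddit3 (CHOP) and Trib3. Cells with a heavy secretory load, such as mucous cells of the airway, alveolar type II cells and plasma cells, depend on these pathways. Changes in Xbp1 splicing are not resolved by the signals used here, which measure total transcript.

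Lungs came from male mice aged 7 to 8 weeks of the strains SP-D-/- (lacking surfactant protein D, the product of Sftpd), BALB/c and C57BL/6. The genetic background of the SP-D-/- mice is not given in the sources used here. Each strain had 6 exposures, which are listed here with the number of arrays in SP-D-/-, BALB/c and C57BL/6 mice. Air alone had 5, 5 and 6 arrays. Ozone alone had 4, 2 and 6. Aspergillus fumigatus (Af) 24 h after challenge with air had 6, 5 and 4, Af 96 h with ozone had 6, 6 and 5, Af 168 h with air had 5, 6 and 4, and Af 168 h with ozone had 4, 4 and 6. Allergen mice were sensitized with Af by the intraperitoneal route on days 0 and 7 and challenged intranasally on day 13. Every mouse, controls included, had a 2 h exposure to air or to ozone at 3 ppm and was killed 12 h after it. The comparison at 96 h was therefore with ozone alone, since the 96 h groups used here all had ozone. The labels call the tissue whole lung homogenate, the design text adds that a single-cell suspension was made from it, and the extraction text describes the left lobe of a perfused lung, frozen at once. In such tissue, fewer cells of a type and less RNA per cell cannot be told apart.

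The defining markers of lung were high on every array: the lowest signal was 10.19 for Sftpc of alveolar type II cells, 9.81 for Ager of type I cells and 9.82 for Scgb1a1 of club cells. Sftpd checked the genotype labels. With the signals of strain-informative genes it marked 6 arrays that went against their labels: SP-D-/- Af 96 h with ozone replicate 1, BALB/c Af 24 h replicates 4 and 5, BALB/c Af 168 h with ozone replicate 6, C57BL/6 Af 96 h with ozone replicate 1 and C57BL/6 Af 168 h with ozone replicate 5. They are called the doubted arrays, and the groups below are as labelled. BALB/c Af 24 h replicates 4 and 5 were marked by Sftpd alone, at 8.79 and 7.68 against a limit of 9. The strain-informative genes placed both on the BALB/c side. Replicate 4 also had the highest spike level of the series (12.40, a measure described next). Whether the label or the quality of these arrays lay behind the mark was not tested. Arrays also differed in the spike level, the mean signal of 9 hybridization-control probe sets, which are made to a fixed recipe on every array. It ran between 9.93 and 12.40 (median 11.13). Comparisons were therefore fitted both to all 89 arrays and, as a spike-adjusted fit, to the 83 arrays left without the doubted ones with the spike level as a covariate. Values are from the fit to all arrays unless the spike-adjusted fit is named. A second array measure, called the actin difference, sets the 3′ against the 5′ control probe set of beta-actin (log2 signals subtracted) and is known to grow as RNA is degraded or copied into shorter fragments.

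The promoters of 4 members are shown because they hold the sequence through which ATF6 and XBP1 are known to act, the ER stress response element. Each line gives the 150 bases before the annotated start, read 5′ to 3′ on the strand of the gene, from RefSeq on GRCm38.p6. The Hspa5 stretch lies at chr2:34771940-34772089 on the plus strand, the Hsp90b1 stretch at chr10:86705445-86705594 on the minus strand, the Creld2 stretch at chr15:88819496-88819645 on the plus strand and the Herpud1 stretch at chr8:94386279-94386428 on the plus strand. Capitals mark exact matches to the ER stress response element in Hspa5, Hsp90b1 and Creld2 and to its second form in Herpud1.
Hspa5: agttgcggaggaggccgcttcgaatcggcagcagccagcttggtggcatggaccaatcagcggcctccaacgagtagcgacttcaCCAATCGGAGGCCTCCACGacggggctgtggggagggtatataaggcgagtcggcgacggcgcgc
Hsp90b1: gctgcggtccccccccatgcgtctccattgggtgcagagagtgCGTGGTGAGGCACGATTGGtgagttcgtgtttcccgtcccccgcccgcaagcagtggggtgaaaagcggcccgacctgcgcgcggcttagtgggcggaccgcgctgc
Creld2: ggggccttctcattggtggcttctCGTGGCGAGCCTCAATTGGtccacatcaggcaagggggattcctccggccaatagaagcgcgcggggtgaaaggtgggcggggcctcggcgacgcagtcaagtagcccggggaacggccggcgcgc
Herpud1: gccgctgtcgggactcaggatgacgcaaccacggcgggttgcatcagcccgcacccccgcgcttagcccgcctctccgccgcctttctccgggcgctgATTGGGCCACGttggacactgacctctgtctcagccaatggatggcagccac
The element searched is CCAAT and CCACG parted by 9 bases of any kind, on both strands of the 250 bases before the start of the gene. It was found in forward orientation 65 to 47 bases before the start in Hspa5, and in reverse orientation 107 to 89 bases before it in Hsp90b1 and 126 to 108 bases before it in Creld2. Hsp90b1 held a further forward match 212 to 194 bases before its start, outside the stretch shown. All 10 members had an entry among 32851 promoter windows of the same length. The element occurred in 3 of the 10 and in 37 of all windows (0.113%). Its second form, ATTGG and CCACG parted by 1 base, occurred 52 to 42 bases before the start of Herpud1 and in 10 of all windows (0.0304%). With 1 mismatch allowed in the fixed letters of the element, 5 of the 10 members and 1.32% of all windows held it, Pdia4 and Ddit3 being the members added. The core TGACGTGG of the unfolded protein response element was in none of the 10 members and in 0.563% of windows, and the amino acid response element TGATGCAAT, which ATF4 is known to bind, was in none of the 10 and in 0.167%. A match is a description of these letters and is not evidence of binding.

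Signal levels on the authors' log2 scale averaged 10.17 for Hsp90b1 over all arrays, 9.68 for Hspa5, 9.11 for Dnajb9, 8.26 for Xbp1, 8.22 for Herpud1, 7.70 for Creld2, 6.97 for Ddit3, 5.53 for Pdia4, 5.26 for Trib3 and 5.09 for Sdf2l1. Probe sets bind with different strength, so these levels do not rank the transcripts of different genes. Sdf2l1 was above the detection filter (log2 4.45) on 79 of 89 arrays, Pdia4 on 85 and Xbp1 on 88, and the other 7 members on all 89. Group means of a member spanned between 0.78 (Ddit3) and 2.06 (Dnajb9) log2 units over the 18 groups. In the order of the 18 group means, neighbouring groups mostly lay within their SDs of each other. The one gap between neighbours that was wider than both SDs was for Hspa5, at 0.43, between C57BL/6 mice after ozone alone (10.48 ± 0.41, SD, n = 6) and SP-D-/- mice in air (10.05 ± 0.30, SD, n = 5).

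**Figure D1:**
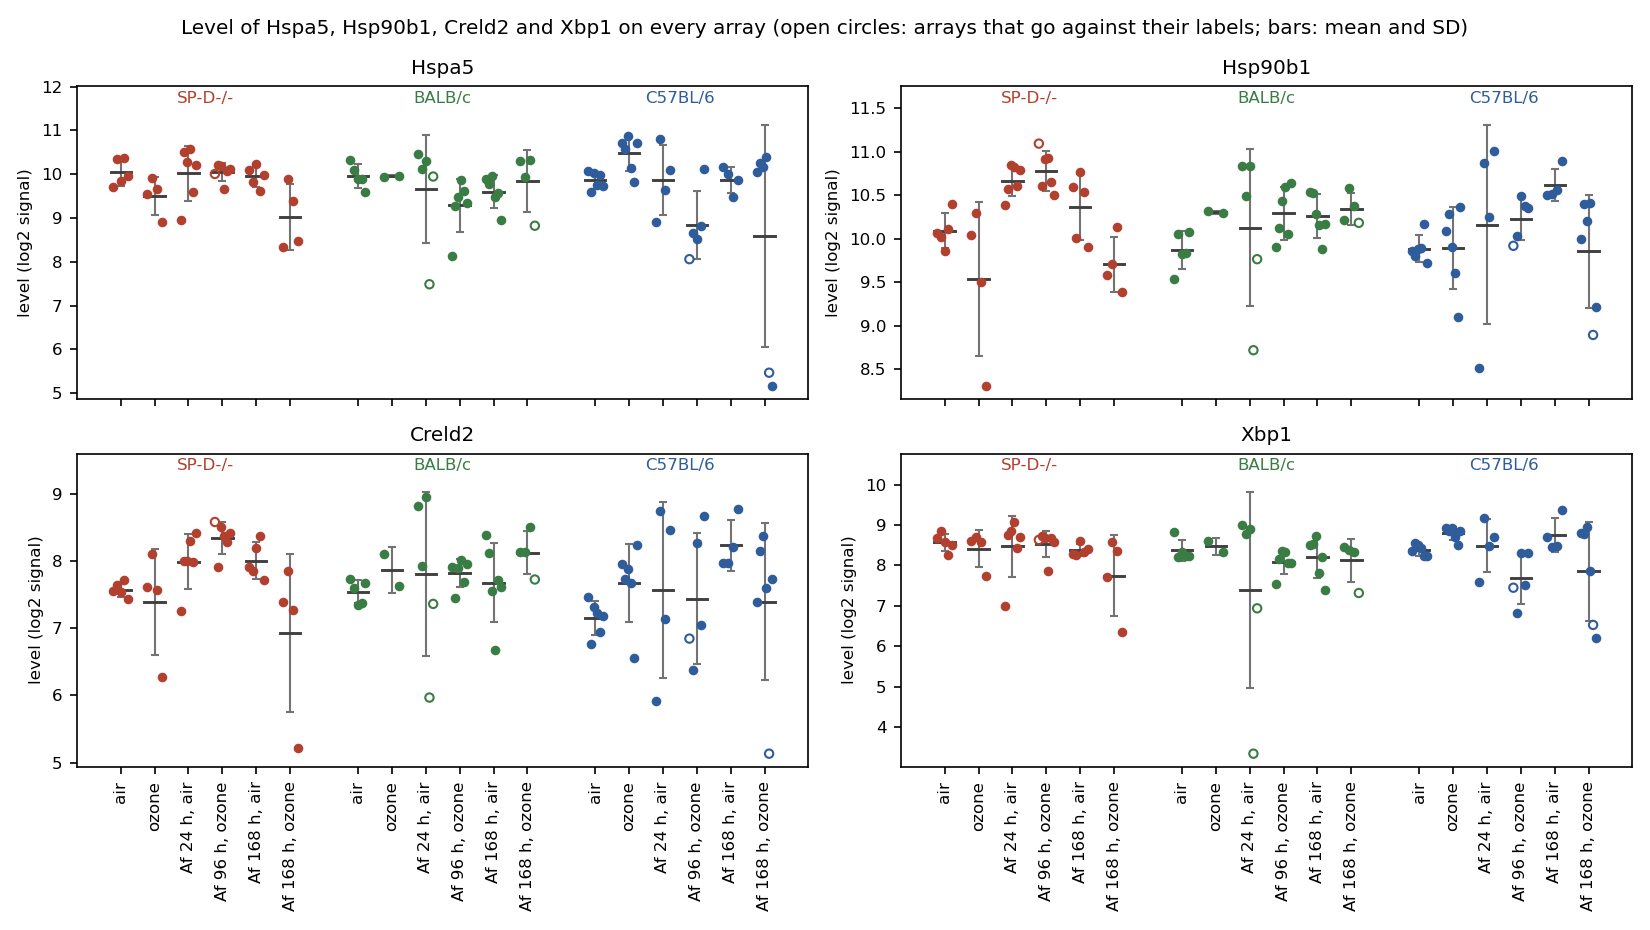
Log2 signal (y axis) of Hspa5, Hsp90b1, Creld2 and Xbp1 on each of the 89 arrays, by strain and exposure (x axis), with each point 1 array, bars the group mean ± SD and open marks the doubted arrays. Hspa5 is lowest on C57BL/6 Af 168 h with ozone replicates 6 and 5, at 5.16 and 5.47, and Xbp1 on BALB/c Af 24 h replicate 4, at 3.34.

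**Figure D2:**
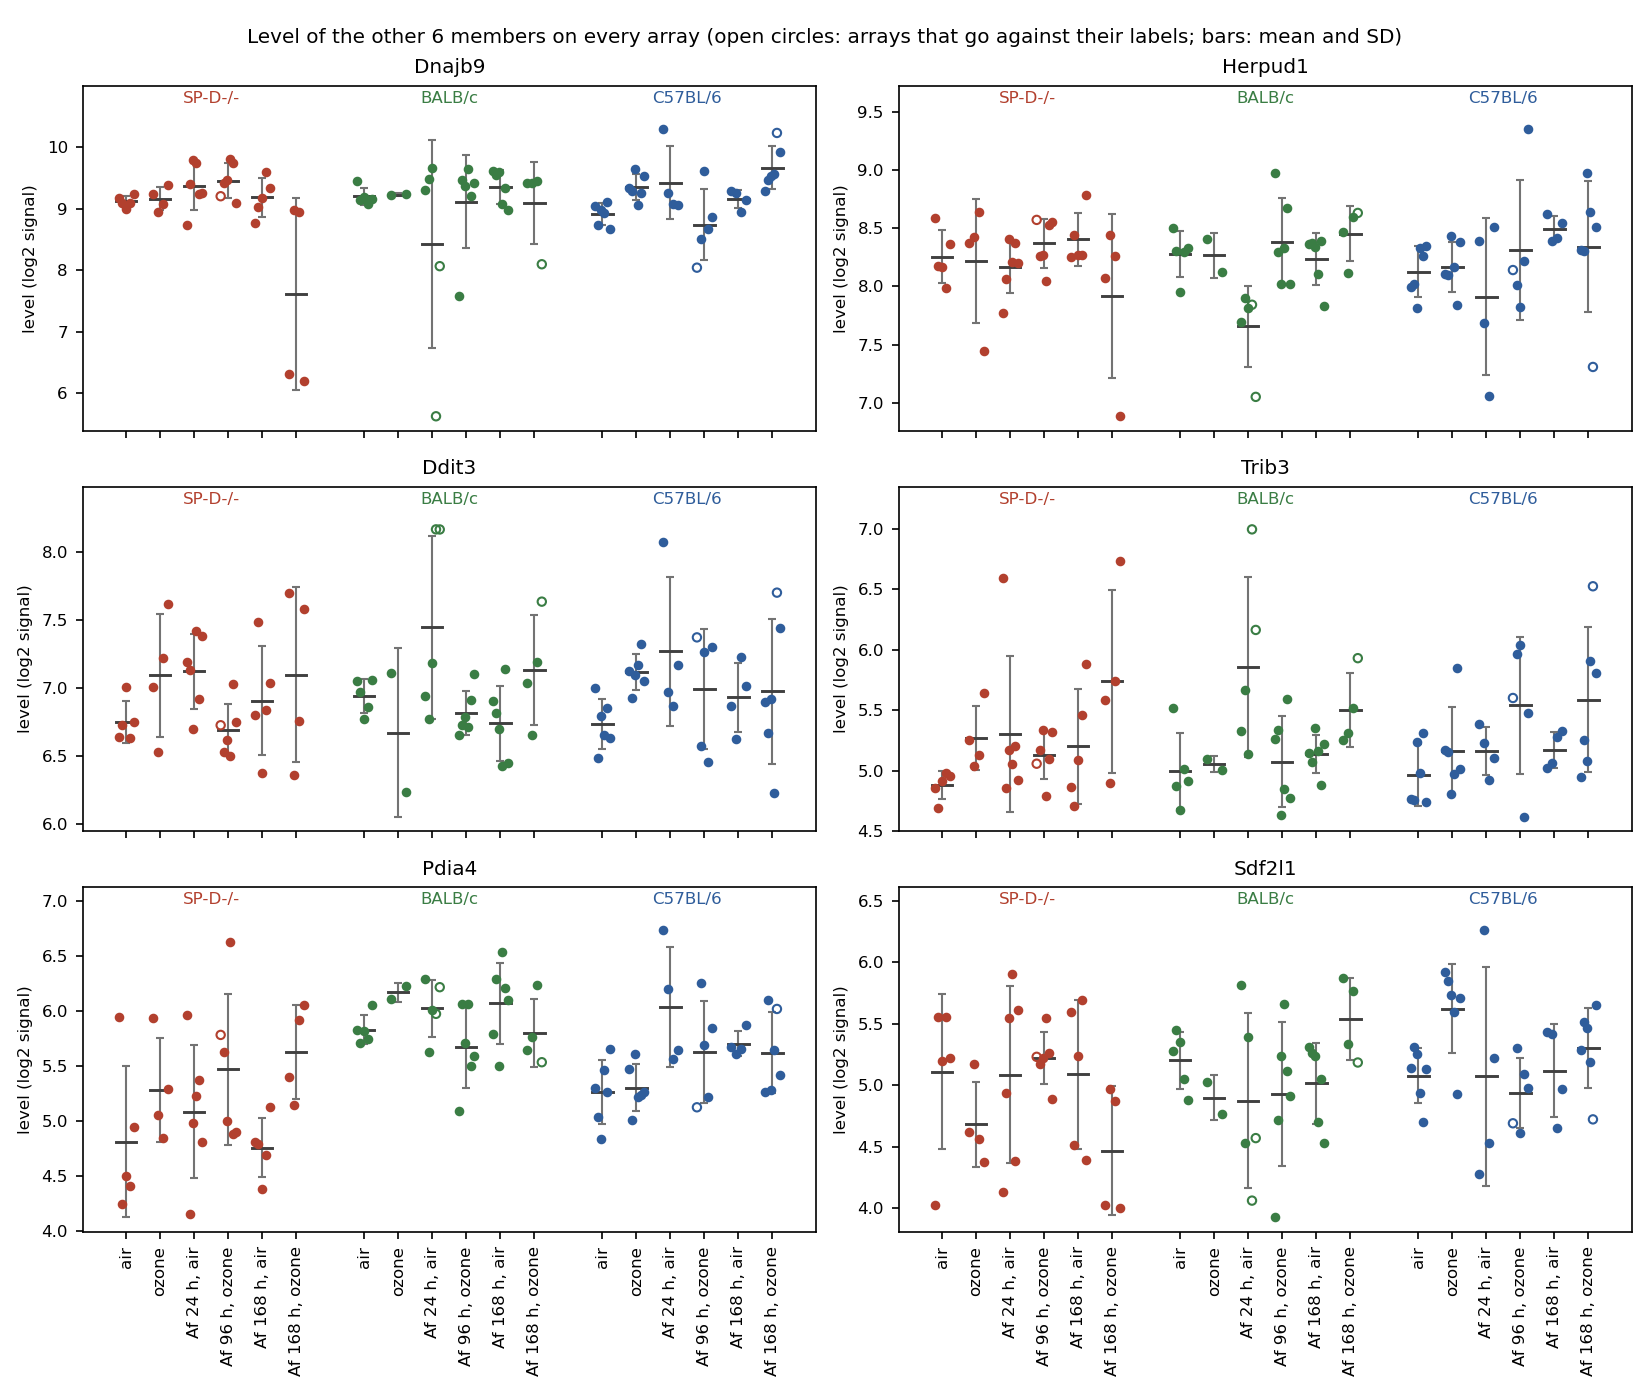
Log2 signal (y axis) of Pdia4, Sdf2l1, Dnajb9, Herpud1, Ddit3 and Trib3 on the same arrays and in the same order of strain and exposure (x axis), with bars for the group mean ± SD. Dnajb9 is at 6.31 and 6.20 on 2 of the 4 SP-D-/- arrays of Af 168 h with ozone and at 8.95 or above on the other 2.

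Over 31 comparisons, limma called 5 of the 310 tests of a member in the fit to all arrays (adjusted p under 0.05), which is 1.61%, against 3.26% of 467015 tests over all genes. The spike-adjusted fit called 8 of 310 (2.58%), against 2.62% over all genes. The members as a group were thus called about as often as other genes or less. The calls that stood in both fits were of Hsp90b1 in SP-D-/- mice at Af 96 h with ozone and of Dnajb9 between SP-D-/- and C57BL/6 mice at Af 168 h with ozone. None of the 10 members was called in the 6 tests of whether a response differed between strains, in either fit, where the share of all genes called was 0, 0.00664% or 0.0133%. Comparisons against 1 control group share its arrays, so their changes are given side by side and are not independent.

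**Figure D3:**
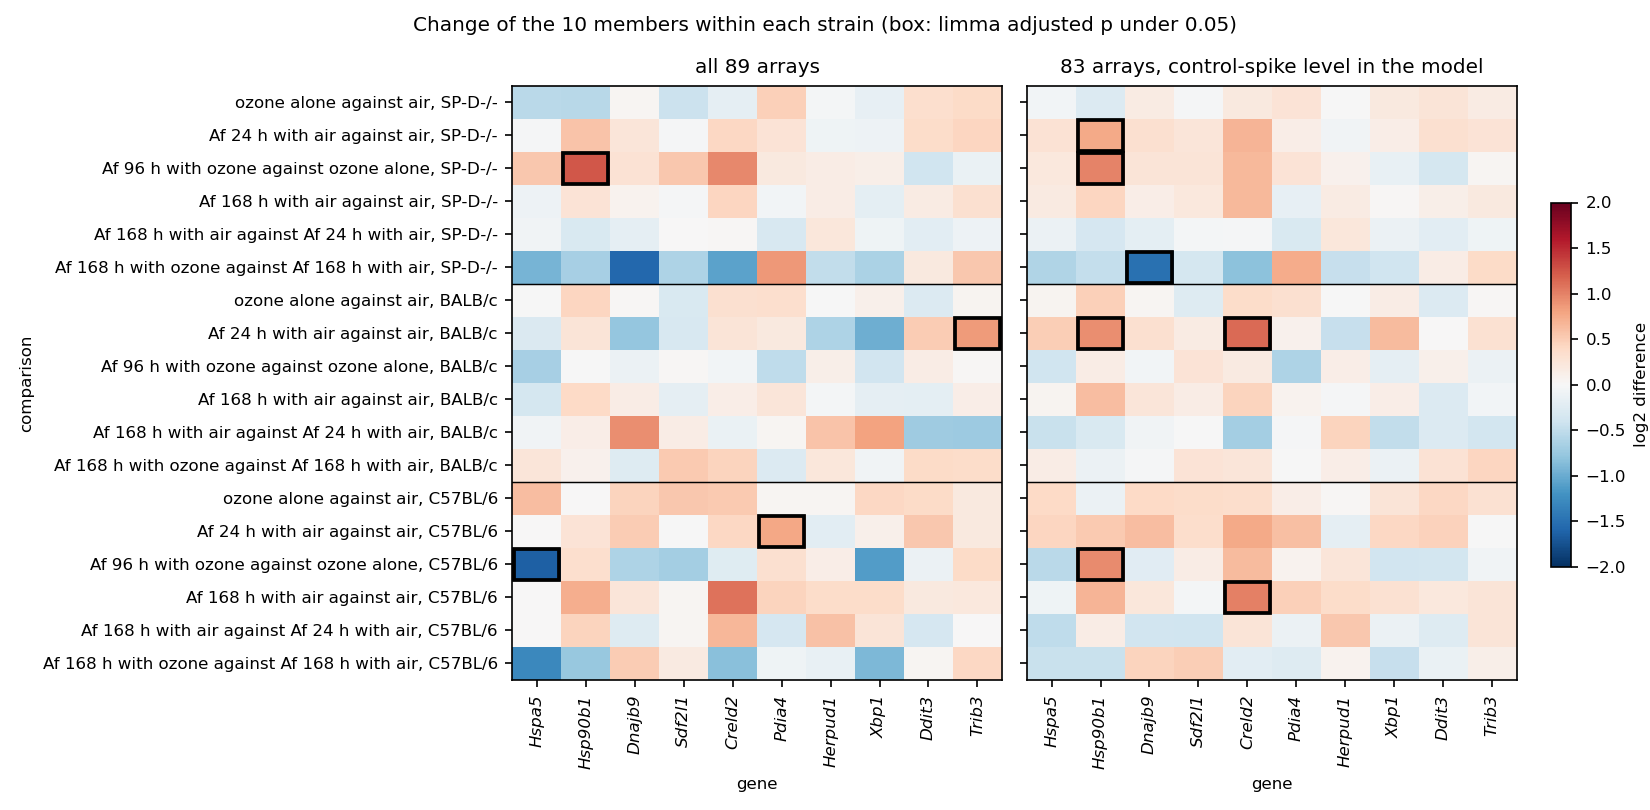
Log2 change (colour) of each member (columns) in the 18 within-strain comparisons (rows), in the fit to all arrays and in the spike-adjusted fit. Boxes mark changes called at an adjusted p under 0.05. Hsp90b1 has 1 boxed change in the fit to all arrays, in SP-D-/- mice at Af 96 h with ozone, and 4 in the spike-adjusted fit.

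Hsp90b1, which encodes GRP94, the HSP90 chaperone of the ER lumen, was higher after allergen in 1 comparison of the fit to all arrays and in 4 of the spike-adjusted fit. In SP-D-/- mice at Af 96 h with ozone its signals ran between 10.50 and 11.09 (median 10.78, n = 6), against 10.04, 10.30, 9.51 and 8.31 after ozone alone. The groups did not overlap, and the lowest control array, replicate 5, also had the highest spike level of its group at 12.24. Hsp90b1 rose there by 1.24 ± 0.30 (SE, limma adjusted p = 0.0125), where 2.58% of all genes and 1 of the 10 members were called, and by 0.99 ± 0.25 in the spike-adjusted fit (adjusted p = 0.015, 2.42% of all genes and 1 of the 10 members). Without that control array the change was 0.83 (adjusted p = 0.317) in the fit to all arrays and 0.66 (adjusted p = 0.236) in the spike-adjusted fit, so the call rested on it. The spike-adjusted call was also lost without Af replicate 4 (0.87, adjusted p = 0.0859).

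In SP-D-/- mice at Af 24 h, Hsp90b1 signals ran between 10.39 and 10.84 (median 10.69, n = 6), against 10.07, 10.02, 9.86, 10.12 and 10.40 in air. All but 1 of the Af arrays lay above every air array. The change was 0.58 ± 0.29 in the fit to all arrays (limma adjusted p = 0.268, 4.71% of all genes and 0 of the 10 members called, 1 at an unadjusted p under 0.05) and a rise of 0.76 ± 0.22 in the spike-adjusted fit (adjusted p = 0.021, 7.17% of all genes and 1 of the 10 members). The spike-adjusted call was lost without air replicate 4 (0.65, adjusted p = 0.0848) or 5 (0.72, adjusted p = 0.0526). In BALB/c mice at Af 24 h the 3 arrays that matched their labels read 10.83, 10.49 and 10.83 and the 2 doubted arrays 8.72 and 9.77, against 9.54, 10.05, 9.83, 9.84 and 10.08 in air. The 3 matching arrays lay above every air array and the 2 doubted arrays did not. Hsp90b1 rose there by 0.94 ± 0.26 in the spike-adjusted fit (adjusted p = 0.0153, 8.97% of all genes and 2 of the 10 members called), against a change of 0.26 ± 0.30 with all arrays (adjusted p = 0.576). It was not called without Af replicate 1 (0.93, adjusted p = 0.0516) or 3 (0.91, adjusted p = 0.0811).

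The C57BL/6 arrays of Af 96 h with ozone read 9.92 (a doubted array), 10.03, 10.48, 10.37 and 10.36 for Hsp90b1, against 10.09, 10.28, 9.90, 9.61, 9.10 and 10.36 after ozone alone. The groups overlapped. The spike level there was 11.92 ± 0.28 after Af with ozone against 10.41 ± 0.75 after ozone alone (SD, exact permutation p = 0.013, adjusted over 25 comparisons 0.162). The change was 0.34 ± 0.29 with all arrays (adjusted p = 0.344) and a rise of 0.95 ± 0.26 in the spike-adjusted fit (adjusted p = 0.00604), where 16.9% of all genes and 1 of the 10 members were called. At Af 168 h with air, C57BL/6 arrays read 10.50, 10.51, 10.55 and 10.89, all above the range of 9.72 to 10.17 in air (median 9.87, n = 6), with a change of 0.73 ± 0.30 (adjusted p = 0.266) and a spike-adjusted change of 0.67 ± 0.23 (adjusted p = 0.0716). The 4 remaining allergen comparisons gave changes between -0.01 and 0.39 with all arrays and between 0.15 and 0.62 in the spike-adjusted fit, none of them called.

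A second, dimmer probe set of Hsp90b1, with a mean of 7.60 against 10.17, had changes of the opposite sign in most of these comparisons. In SP-D-/- mice at Af 96 h with ozone it read between 5.34 and 7.90 (n = 6), against 8.06, 8.26, 7.86 and 8.92 after ozone alone. Its change was -1.25 with all arrays (limma adjusted p = 0.179) and a fall by 1.57 in the spike-adjusted fit (adjusted p = 0.0243), while the brighter set rose in the same samples. On the C57BL/6 arrays of the same comparison it read 6.93, 7.08, 5.42, 5.05 and 7.68, against 8.77, 9.11, 8.80, 8.01, 7.55 and 8.46 after ozone alone, a fall by 2.02 (adjusted p = 0.00126), or by 1.31 in the spike-adjusted fit (adjusted p = 0.0288). Across arrays within groups the 2 sets correlated at r = 0.47. The dimmer set fell with the actin difference (r = -0.32, adjusted permutation p = 0.046, n = 89) and the brighter set had r = -0.13 (adjusted p = 0.657), and both fell with the spike level (r = -0.52 and -0.55). With the probe sets of Hsp90b1 averaged, its change at Af 96 h with ozone was -0.0028 in SP-D-/- mice (adjusted p = 0.997) and a fall by 0.84 in C57BL/6 mice (adjusted p = 0.0441). Whether Hsp90b1 rose thus depends on the probe set, and which one follows the transcript was not tested.

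**Figure D4:**
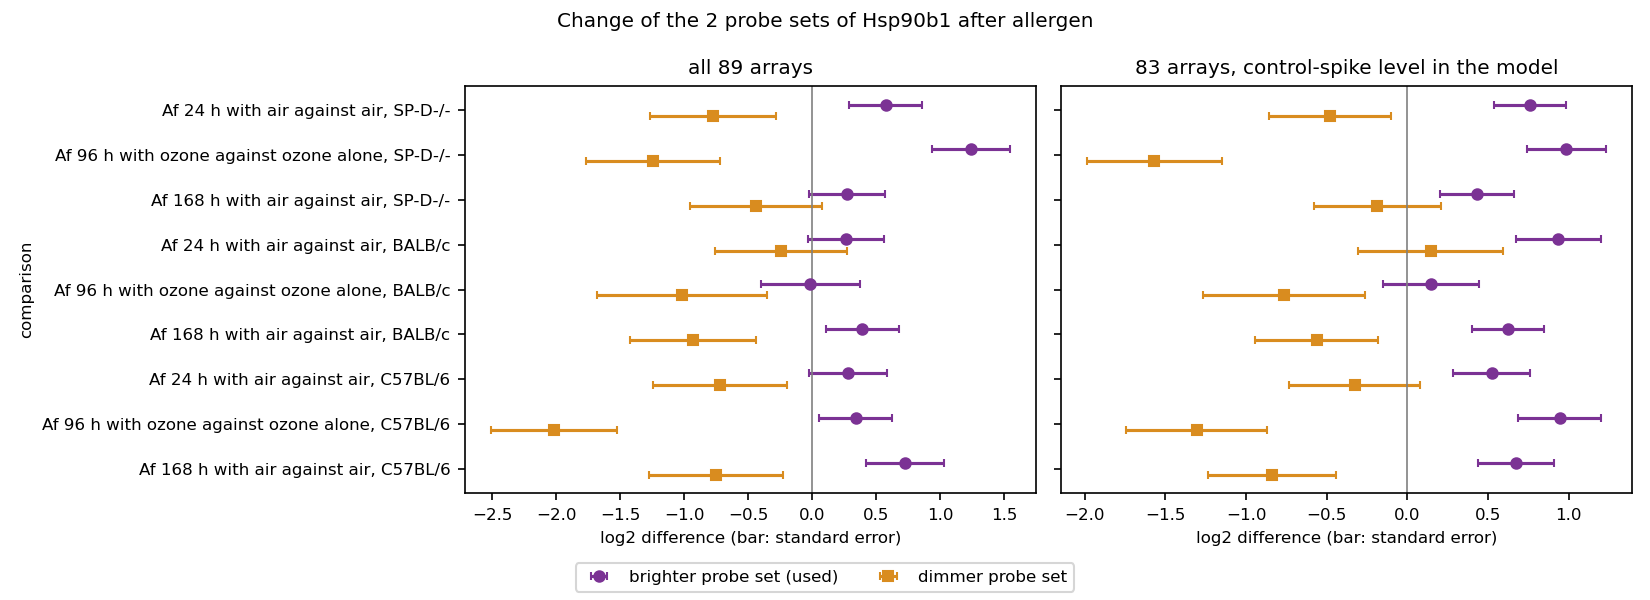
Log2 change ± SE (x axis) of the brighter and the dimmer Hsp90b1 probe sets in the 9 allergen comparisons (y axis), in the fit to all arrays and in the spike-adjusted fit. The dimmer set lies below 0 in 9 of 9 comparisons with all arrays, between -2.02 and -0.25, where the brighter set lies between -0.01 and 1.24.

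Creld2, a secreted and ER-resident disulfide isomerase induced by ATF6, followed Hsp90b1 most closely. In C57BL/6 mice at Af 168 h with air its signals were 7.98, 7.97, 8.22 and 8.78, against 6.77 to 7.47 in air (median 7.20, n = 6). No Af array lay within the air range. The change was 1.08 ± 0.44 with all arrays (limma adjusted p = 0.24, 1.35% of all genes and 0 of the 10 members called, 2 at an unadjusted p under 0.05) and a rise of 1.01 ± 0.32 in the spike-adjusted fit (adjusted p = 0.0442, 5.71% of all genes and 1 of the 10 members). That call was lost without Af replicate 4 (0.96, adjusted p = 0.182) or 6 (0.73, adjusted p = 0.299) and without any of air replicates 1, 2, 3, 4 and 6 (0.94 to 1.05, adjusted p between 0.0568 and 0.0942). In BALB/c mice at Af 24 h the 3 matching arrays read 8.82, 7.93 and 8.95 and the 2 doubted arrays 5.97 and 7.36, against 7.73, 7.60, 7.35, 7.37 and 7.67 in air. Creld2 rose there by 1.14 ± 0.36 in the spike-adjusted fit (adjusted p = 0.0338), against 0.26 ± 0.43 with all arrays (adjusted p = 0.708), and the call was lost without Af replicate 1 (1.07, adjusted p = 0.107) or 3 (0.99, adjusted p = 0.195) and without any of air replicates 2 to 4 (1.06 to 1.11, adjusted p between 0.0628 and 0.0781). In SP-D-/- mice at Af 96 h with ozone Creld2 ran between 7.91 and 8.58 (median 8.40, n = 6), against 7.62, 8.11, 7.57 and 6.27 after ozone alone, a change of 0.96 ± 0.44 that was not called (adjusted p = 0.223).

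Hspa5, which encodes BiP, the central HSP70 chaperone of the ER and the regulator that holds the sensors inactive, was called once, and downwards. At Af 96 h with ozone, C57BL/6 mice had Hspa5 signals of 8.06 (a doubted array), 8.67, 8.52, 8.82 and 10.12, against 9.82 to 10.87 after ozone alone (median 10.65, n = 6). Of the Af arrays 4 lay below every control array and 1, replicate 6, lay within their range. Hspa5 fell by 1.64 ± 0.51 (SE, limma adjusted p = 0.0103), where 36.4% of all genes and 1 of the 10 members were called. In the spike-adjusted fit the change was -0.54 ± 0.43 (adjusted p = 0.437), and with the actin difference as a further covariate it was 0.0084 (adjusted p = 0.992). The actin difference averaged 2.87 in these Af arrays against 1.72 after ozone alone (exact permutation test, adjusted p = 0.034), and by the probe sets used for the 10 members Hspa5 was the one that correlated with it within groups (r = -0.46, Spearman's rho = -0.34, adjusted permutation p = 0.0265). Of their 6 other probe sets, 3 did so too: the second ones of Hspa5 (r = -0.50, adjusted p = 0.00218) and Herpud1 (r = -0.32, adjusted p = 0.0164) and the dimmer one of Hsp90b1 given above. A second Hspa5 probe set, with r = 0.975 to the first, fell by 1.38 there (adjusted p = 0.0321).

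After ozone alone, C57BL/6 Hspa5 (9.82 to 10.87, median 10.65, n = 6) stood above air (9.60 to 10.08, median 9.87, n = 6) on all but replicate 5, a change of 0.61 ± 0.49 that was not called (limma adjusted p = 1). After ozone in SP-D-/- mice it read 9.54, 9.91, 9.66 and 8.91, against 9.70, 10.35, 9.85, 10.37 and 9.95 in air (-0.54 ± 0.57, adjusted p = 0.616). In BALB/c mice after ozone it read 9.94 and 9.97, within the air range of 9.58 to 10.34. The lowest Hspa5 signals of the series, 5.47 and 5.16, were on C57BL/6 Af 168 h with ozone replicates 5 and 6, whose 4 companions read 10.06 to 10.40. Replicate 5 is a doubted array, and replicate 6 had an actin difference of 4.64 and a spike level of 11.96.

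Dnajb9 (ERdj4), a J-domain cochaperone of BiP that is induced through XBP1, differed between strains at Af 168 h with ozone. SP-D-/- arrays read 6.31, 8.97, 8.95 and 6.20, against 9.29 to 10.23 in C57BL/6 mice (median 9.55, n = 6). The groups did not overlap, and 2 of the 4 SP-D-/- arrays, replicates 1 and 6 (spike levels 12.04 and 12.33), lay far below the other 2. Dnajb9 was lower in SP-D-/- mice by 2.06 on the log2 scale (change -2.06 ± 0.40, limma adjusted p = 0.00459, 0.504% of all genes and 1 of the 10 members called), and by 1.84 in the spike-adjusted fit (-1.84 ± 0.32, adjusted p = 0.00065, 1.11% and 1 of the 10). Without replicate 1 or replicate 6 the change was -1.63 (adjusted p = 0.0872) or -1.59 (adjusted p = 0.144) with all arrays, so that call was lost. In the spike-adjusted fit it was kept without replicate 1 (-1.43, adjusted p = 0.0387) and without replicate 6 (-1.42, adjusted p = 0.0202). A fit on these 2 groups alone gave an adjusted p of 0.999. Against SP-D-/- Af 168 h with air, where Dnajb9 read 8.77, 9.03, 9.17, 9.60 and 9.34, the change was -1.57 ± 0.42 (adjusted p = 0.0524, 0.604% of all genes and 0 of the 10 members called, 4 at an unadjusted p under 0.05 in either direction). The spike-adjusted fit called it (a fall by 1.5 ± 0.32, adjusted p = 0.00585, 2.22% of all genes and 1 of the 10 members), and here the spike-adjusted call was lost without replicate 1 (-1.08, adjusted p = 0.0857) or replicate 6 (-1.07, adjusted p = 0.143). On the corresponding C57BL/6 arrays the change with ozone at Af 168 h was 0.51 ± 0.40 (adjusted p = 0.492, 0.0597% of all genes and 0 of the 10 members called, 2 at an unadjusted p under 0.05).

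Pdia4 (ERp72), a protein disulfide isomerase, had low signals throughout. In C57BL/6 mice at Af 24 h it read 6.74, 6.20, 5.57 and 5.65, against 4.84 to 5.65 in air (median 5.28, n = 6). The groups overlapped, with the Af arrays at 5.57 and 5.65 within the air range. Pdia4 rose by 0.78 ± 0.28 (limma adjusted p = 0.0426, 16.2% of all genes and 1 of the 10 members called), with the highest array, replicate 1, at a spike level of 12.40. The change was 0.54 without that array (adjusted p = 0.292) and 0.60 in the spike-adjusted fit (adjusted p = 0.114, 16% of all genes and 0 of the 10 members called, 4 at an unadjusted p under 0.05). The call was also lost without Af replicate 3 (0.72, adjusted p = 0.0646) or without any of air replicates 1 to 4 (0.69 to 0.82, adjusted p between 0.0503 and 0.0944). Between strains, Pdia4 in SP-D-/- mice at Af 168 h with air read 4.81, 4.79, 4.38, 4.69 and 5.12, against 5.67, 5.61, 5.66 and 5.87 in C57BL/6 mice. The groups did not overlap, and the change of -0.95 ± 0.29 was not called (adjusted p = 0.783, 0.0199% of all genes and 0 of the 10 members called, 1 at an unadjusted p under 0.05). At Af 24 h the same contrast was -0.95 ± 0.28 (adjusted p = 0.171) and -0.90 ± 0.26 in the spike-adjusted fit (adjusted p = 0.0666).

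Sdf2l1, which encodes a small ER protein that works with BiP and its J-domain partners, was called in no comparison. Its signals in C57BL/6 mice after ozone alone ran between 4.93 and 5.92 (median 5.72, n = 6), against 4.70 to 5.31 in air (median 5.14, n = 6), and replicate 5 was the one ozone array within the air range. The change was 0.54 ± 0.28 (limma adjusted p = 1). At Af 96 h with ozone in C57BL/6 mice it read 4.69, 5.30, 4.62, 5.09 and 4.98, a change of -0.69 ± 0.29 against ozone alone that was not called (adjusted p = 0.0563) and that was 0.15 in the spike-adjusted fit (adjusted p = 0.756).

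Herpud1, a membrane protein of ER-associated degradation, changed little by the probe set used here. In BALB/c mice at Af 24 h it read 7.69, 7.90, 7.81, 7.84 and 7.05, against 8.50, 8.30, 7.95, 8.30 and 8.33 in air. The groups did not overlap, and the last 2 Af arrays are the doubted ones. The change of -0.62 ± 0.24 was not called (limma adjusted p = 0.078). A second probe set of equal brightness (mean 8.20 against 8.22, r = 0.56 within groups) read 7.83, 7.67, 7.87, 7.17 and 7.31 in the same Af mice, against 9.13, 8.74, 8.48, 8.69 and 8.39 in air. It fell by 1.12 (adjusted p = 0.0073) and by 0.82 in the spike-adjusted fit (adjusted p = 0.036). In C57BL/6 mice at Af 24 h this second set read 7.32, 8.10, 7.36 and 8.10, against 8.45 to 8.76 in air (n = 6), again without overlap, and fell by 0.89 (adjusted p = 0.0317) and by 0.66 in the spike-adjusted fit (adjusted p = 0.046). The set used for Herpud1 changed there by -0.22 ± 0.25 (adjusted p = 0.557), so the direction was shared and the call was not.

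Xbp1, the transcription factor activated by IRE1, was called in no comparison by the probe set used here. Its C57BL/6 signals at Af 96 h with ozone were 7.45 (a doubted array), 6.83, 8.31, 7.51 and 8.30, against 8.51 to 8.93 after ozone alone (median 8.85, n = 6). The groups did not overlap. The change was -1.11 ± 0.47 (limma adjusted p = 0.055) and -0.38 ± 0.32 in the spike-adjusted fit (adjusted p = 0.476). Of 3 other Xbp1 probe sets, 2 fell there with all arrays, by 1.25 (adjusted p = 0.0088) and by 2.72 (adjusted p = 0.00801), and the third had a change of -0.07 (adjusted p = 0.909). None of the 3 was called in the spike-adjusted fit (-0.47, -1.27 and 0.45, adjusted p between 0.217 and 0.415). The 2 doubted BALB/c Af 24 h arrays read 3.34 and 6.94 for Xbp1. The other 3 read 9.0, 8.77 and 8.90, against 8.22 to 8.84 in air.

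Ddit3 and Trib3 belong to the PERK and ATF4 branch: CHOP is a transcription factor tied to cell death, and Trib3 is a pseudokinase induced by it. Ddit3 was called in no comparison, and its changes over the 9 allergen comparisons ran between -0.40 and 0.53. In C57BL/6 mice at Af 24 h it read 8.08, 6.97, 6.87 and 7.17, against 6.49 to 7.00 in air (median 6.73, n = 6), with the highest value on replicate 1 of the high spike level, a change of 0.53 ± 0.25 (limma adjusted p = 0.119). After ozone alone, C57BL/6 Ddit3 ran between 6.93 and 7.33 (median 7.12, n = 6), and 1 of these 6 arrays lay within the air range, a change of 0.38 ± 0.22 that was not called (adjusted p = 1). Trib3 in BALB/c mice at Af 24 h read 5.33, 5.67 and 5.13 on the matching arrays and 7.00 and 6.16 on the doubted ones, against 5.52, 4.87, 4.67, 5.01 and 4.92 in air. It rose by 0.86 ± 0.28 with all arrays (adjusted p = 0.0296, 12.1% of all genes and 1 of the 10 members called). Without the doubted arrays the change was 0.38 (adjusted p = 0.542), and in the spike-adjusted fit it was 0.31 (adjusted p = 0.55), so the call rested on those 2 arrays (0.57, adjusted p = 0.234, without replicate 4 and 0.78, adjusted p = 0.0667, without replicate 5). It was also lost without any of air replicates 2, 3, 4 and 6 (0.78 to 0.86, adjusted p between 0.0517 and 0.0848).

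Ozone alone against air gave no call of a member in any strain. The share of all genes called with all arrays was 0.0996% in SP-D-/- mice, 0.0133% in BALB/c mice and 0.0266% in C57BL/6 mice (limma). No member had an unadjusted p under 0.05 in these 3 comparisons with all arrays. In the spike-adjusted fit 1 member did, with a positive change in C57BL/6 mice. All 10 members had a positive change in C57BL/6 mice, with a median of 0.40 against 0.02 over all genes, and 9 of 10 in the spike-adjusted fit. The 95% intervals of these changes with all arrays include 0, so neither a rise nor its absence was shown. With 2 BALB/c arrays after ozone alone, that strain gives the least precise comparison. In air, the 10 members differed between SP-D-/- and C57BL/6 mice by -0.45 (Pdia4) to 0.43 (Creld2) and between BALB/c and C57BL/6 mice by -0.02 (Hsp90b1) to 0.57 (Pdia4), with 0 of 10 called in both (0.0664% and 0.511% of all genes called). SP-D-/- against C57BL/6 at Af 96 h with ozone gave 0 calls among the 10 where 16.2% of all genes were called (4.65% in the spike-adjusted fit), with Hspa5 at 1.21 ± 0.51 (adjusted p = 0.0839) and Creld2 at 0.90 ± 0.41 (adjusted p = 0.106). In the spike-adjusted fit these differences were 0.44 and 0.24.

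Within groups some members moved together over arrays and others ran opposite. Of the 45 pairs of members, 25 correlated at an adjusted permutation p under 0.05 over 89 arrays after group means were removed. The share among pairs of other genes is not given here, so this count does not set the members apart. Hspa5 and Xbp1 had r = 0.76 (rho = 0.76), Hsp90b1 and Creld2 r = 0.76 (rho = 0.67), and Creld2 and Xbp1 r = 0.72 (rho = 0.67), each with an adjusted p of 5e-05, and without the 2 arrays farthest from the median r was 0.76, 0.70 and 0.67. Hsp90b1 and Ddit3 ran opposite (r = -0.62, rho = -0.49, adjusted p = 8.18e-05), as did Trib3 and Xbp1 (r = -0.63, rho = -0.44, adjusted p = 0.000112). Grouped after these values were seen, Hspa5, Hsp90b1, Sdf2l1, Dnajb9, Creld2 and Xbp1 had 15 pairs with r between 0.29 and 0.76 (median 0.54), and their 12 pairs with Ddit3 and Trib3 had r between -0.63 and -0.30. Pdia4 correlated with none of the other 9 at that threshold (r between -0.20 and 0.23), and Herpud1 with 1 of 9 (Creld2, r = 0.49). The median r over all 45 pairs was 0.09.

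The spike level, which the genes of an array share, correlated with 9 of the 10 members. The share of all genes that correlate with it is not given here, so this count does not set the members apart. Sdf2l1 correlated with it at r = -0.68, Hspa5 at -0.57, Hsp90b1 at -0.55, Creld2 at -0.55, Xbp1 at -0.53 and Dnajb9 at -0.26, while Trib3 had r = 0.52, Pdia4 0.35 and Ddit3 0.28 (adjusted permutation p between 1.67e-05 and 0.0226) and Herpud1 -0.11 (adjusted p = 0.396). Spearman's rho was -0.62 for Sdf2l1, -0.62 for Hspa5, -0.50 for Hsp90b1, -0.45 for Creld2, -0.52 for Xbp1, -0.16 for Dnajb9, 0.46 for Trib3, 0.27 for Pdia4 and 0.25 for Ddit3. Dnajb9 did not pass by rho (adjusted p = 0.18). The median r of the 15 pairs was 0.54 on all arrays, 0.38 without the doubted arrays, 0.33 on all arrays with the spike level removed and 0.21 with both steps. That of the 12 opposite pairs was -0.49, -0.33, -0.30 and -0.14 in the same order. After both steps Hspa5 with Xbp1 had r = 0.68, Hsp90b1 with Creld2 0.56, Creld2 with Xbp1 0.51, Creld2 with Herpud1 0.47 and Hsp90b1 with Ddit3 -0.49. Ddit3 and Trib3, which share a branch, had r = 0.43 on all arrays, 0.24 without the doubted arrays, 0.34 with the spike level removed and 0.18 with both.

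**Figure D5:**
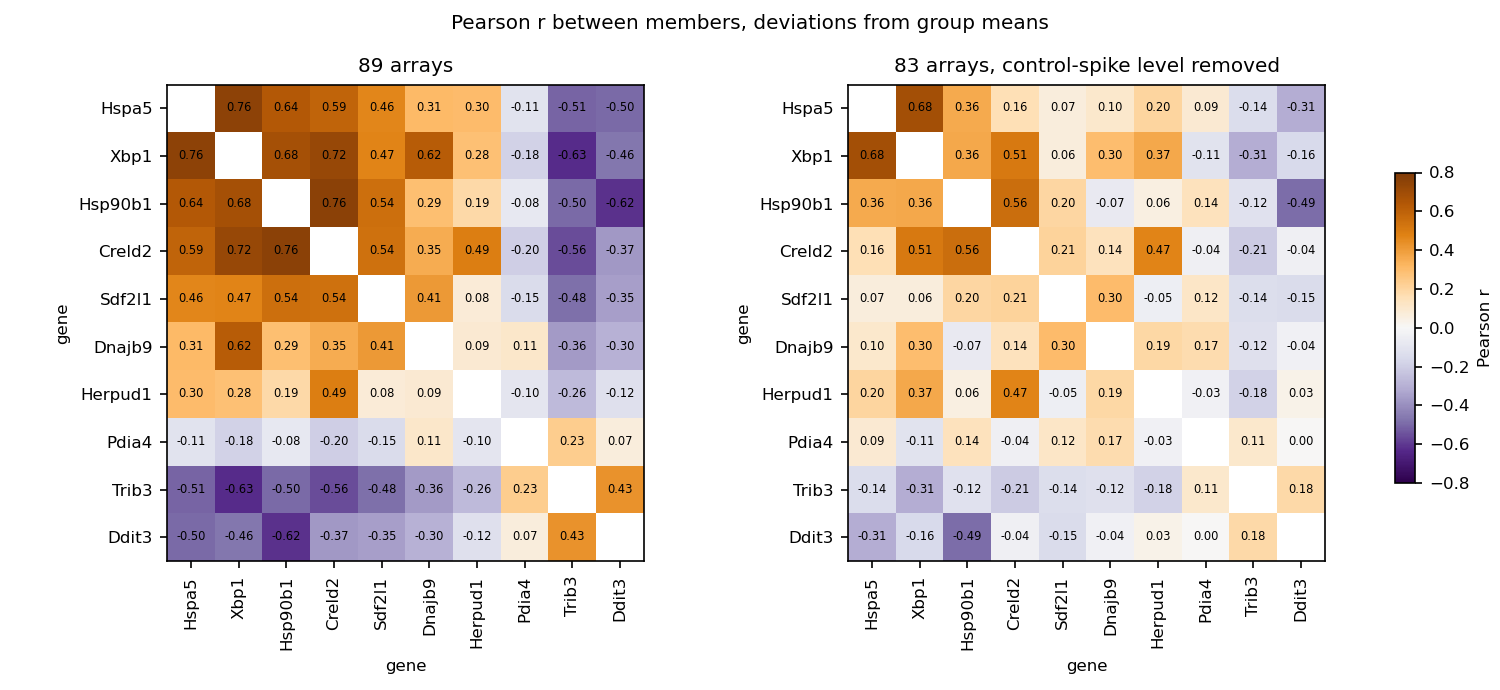
Pearson's r (colour and number) between each pair of members over arrays after group means were removed, on all 89 arrays and on 83 arrays with the spike level removed. The pairs Hspa5 with Xbp1 and Hsp90b1 with Creld2 have r = 0.76 on all arrays and r = 0.68 and 0.56 after the adjustment.

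Over the 18 group means, the genes outside the pathway lists whose pattern was most like the mean profile of the 7 members Hspa5, Hsp90b1, Pdia4, Sdf2l1, Creld2, Dnajb9 and Herpud1 were Spcs2 (r = 0.87), Uso1 (0.85), Tcaf2, Tmed3 and Uxs1 (0.84 each). Spcs2 is a subunit of the signal peptidase, and Uso1 and Tmed3 act in transport between the ER and the Golgi. This likeness is a description over 18 means that share the spike level of their arrays. Of the 7 members averaged into the profile, Creld2 was closest to it (r = 0.87) and Pdia4 did not follow it (0.08). Their own values are part of the profile, which raises these r. Of the members outside it, Xbp1 had r = 0.56, and Ddit3 (-0.28) and Trib3 (-0.44) did not follow it.

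Other genes of ER folding changed in few comparisons. Of the 23 tested, 0 to 3 rose and 0 to 2 fell in any within-strain comparison of the spike-adjusted fit. Manf, a secreted ER stress protein that binds BiP, was called in 5 of them, more than any other of the 23. At Af 24 h it ran in SP-D-/- mice between 8.31 and 9.22 (n = 6), against 7.06, 7.64, 7.70, 8.01 and 7.84 in air, without overlap. The C57BL/6 arrays read 7.48, 9.39, 8.38 and 9.51 at Af 24 h and 8.44, 8.97, 8.57 and 9.04 at Af 168 h, against 6.88 to 7.62 in air (n = 6). Only the array at 7.48 lay within the air range. In BALB/c mice at Af 24 h the 3 matching arrays read 9.78, 8.78 and 9.38 and the 2 doubted arrays 4.65 and 7.70, against 8.21, 7.61, 7.71, 7.56 and 7.89 in air. The matching arrays lay above every air array and the doubted ones did not. Manf rose in the spike-adjusted fit by 1.44 ± 0.32 in SP-D-/- mice (limma adjusted p = 0.00217) and by 1.67 ± 0.39 in BALB/c mice (adjusted p = 0.00275) and 1.83 ± 0.35 in C57BL/6 mice (adjusted p = 0.000171) at Af 24 h, and at Af 168 h by 1.17 in SP-D-/- mice (adjusted p = 0.0293) and 1.37 in C57BL/6 mice (adjusted p = 0.00918). With all arrays none of these 5 changes was called (adjusted p between 0.0717 and 0.771).

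At Af 24 h in the spike-adjusted fit, 3 of the 23 folding genes rose and none fell in each strain, where 7.17% of all genes were called in SP-D-/- mice, 8.97% in BALB/c mice and 16% in C57BL/6 mice. Beside Manf these were Fkbp11 (0.84) and Uggt1 (0.64) in SP-D-/- mice, Pdia6 (0.93) and Fkbp11 (0.99) in BALB/c mice, and Pdia6 (0.70) and Uggt1 (0.66) in C57BL/6 mice. With all arrays none of the 23 was called in SP-D-/- mice (4.71% of all genes called), Pdia6 rose by 0.60 (adjusted p = 0.0318) and Dnajc3, a BiP cochaperone, fell by 1.16 (adjusted p = 0.0376) in BALB/c mice (12.1%), and Pdia6 alone was called in C57BL/6 mice (0.59, adjusted p = 0.0311, 16.2%). Fkbp11 is a prolyl isomerase of secretory cells, Pdia6 a disulfide isomerase and Uggt1 the folding sensor of glycoproteins. The median change over the 23 was 0.00 in SP-D-/-, 0.18 in BALB/c and -0.07 in C57BL/6 mice, against 0.04, 0.03 and 0.05 over all genes. At Af 96 h with ozone in C57BL/6 mice, 1 folding gene rose and 8 fell with all arrays (median -0.77, against -0.00 over all genes, 36.4% of which were called), while after the spike adjustment 1 rose and 2 fell, where 16.9% of all genes were called. P4hb, the archetypal disulfide isomerase, fell by 1.89 ± 0.35 (adjusted p = 3.17e-05) and by 1.46 in the spike-adjusted fit, Canx, the lectin chaperone calnexin, fell by 0.77 and 0.74, and Uggt1 rose by 0.65 and 0.89.

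Genes of degradation and translocation moved in both directions. At Af 24 h, of 26 tested, 3 rose and 1 fell in SP-D-/- mice, 4 rose and 2 fell in BALB/c mice and 4 rose and 3 fell in C57BL/6 mice, all after the spike adjustment, where 7.17%, 8.97% and 16% of all genes were called in those strains. With all arrays 1 rose and 0 fell in SP-D-/- mice, 1 rose and 1 fell in BALB/c mice and 2 rose and 2 fell in C57BL/6 mice (4.71%, 12.1% and 16.2% of all genes). Edem1, which delivers misfolded glycoproteins to degradation, rose in the spike-adjusted fit by 1.19 ± 0.32 in SP-D-/- mice (limma adjusted p = 0.0118, against 0.79 with adjusted p = 0.335 with all arrays), where Syvn1, the ubiquitin ligase HRD1, also rose by 0.97 ± 0.21 (adjusted p = 0.00106) and by 1.08 ± 0.23 with all arrays (adjusted p = 0.00182). In C57BL/6 mice Edem1 rose by 0.99 ± 0.35 in the spike-adjusted fit (adjusted p = 0.04, against 0.46 with adjusted p = 0.503 with all arrays). Spcs1 of the signal peptidase was lower there in both fits, with a change of -1.17 ± 0.27 spike-adjusted (adjusted p = 0.0018) and -1.403 with all arrays (adjusted p = 0.0208), as was Edem3, with changes of -1.04 ± 0.31 (adjusted p = 0.0153) and -1.29 (adjusted p = 0.0139). At Af 96 h with ozone in SP-D-/- mice 3 of 26 rose and none fell in both fits. Of all genes 2.58% were called there with all arrays and 2.42% spike-adjusted. Kdelr3, a retrieval receptor for ER proteins, rose by 1.51 with all arrays and by 1.09 spike-adjusted. Ssr3 of the translocon rose by 0.80 and 0.76, and Sec62, a translocation factor, by 0.73 and 0.72. At that time in C57BL/6 mice 3 rose and 9 fell with all arrays, where 36.4% of all genes were called. After the spike adjustment 6 rose and 2 fell, where 16.9% of all genes were called. Kdelr2, of the same family as Kdelr3, was among those that fell in the spike-adjusted fit (-1.14). It also fell in that fit at Af 168 h in C57BL/6 (-0.92) and BALB/c mice (-0.86), and at Af 24 h in BALB/c mice (-1.04). With all arrays Kdelr2 was called in none of these Af 168 h and Af 24 h comparisons.

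Among 18 genes of sensing and signalling, Ppp1r15a (GADD34), which restores translation after PERK acts, rose at Af 24 h in the spike-adjusted fit by 0.96 ± 0.30 in SP-D-/- mice (limma adjusted p = 0.0352), 1.62 ± 0.36 in BALB/c mice (adjusted p = 0.00164) and 1.21 ± 0.32 in C57BL/6 mice (adjusted p = 0.0064), and at Af 96 h with ozone in SP-D-/- mice by 1.14 ± 0.33 (adjusted p = 0.0458). With all arrays none of these 4 changes was called (0.76 to 1.26, adjusted p between 0.0625 and 0.217). Atf3, a stress-induced transcription factor, rose by 1.72 in BALB/c mice (adjusted p = 0.00206) and 1.28 in C57BL/6 mice (adjusted p = 0.00782) at Af 24 h in the spike-adjusted fit, and was called in neither with all arrays (1.05 and 1.13, adjusted p = 0.0763 and 0.0505). Atf4 rose by 1.43 ± 0.25 in BALB/c mice in the spike-adjusted fit (adjusted p = 6.89e-05), and by 1.08 with all arrays (adjusted p = 0.0228). At Af 24 h in the spike-adjusted fit 2 of the 18 rose and 2 fell in SP-D-/- mice (7.17% of all genes called), 3 rose and 0 fell in BALB/c mice (8.97%), and 3 rose and 5 fell in C57BL/6 mice (16%), Crebrf (-1.49 ± 0.51, adjusted p = 0.0371) among those that fell. With all arrays 0 rose and 2 fell in SP-D-/- mice, 1 rose and 3 fell in BALB/c mice and 0 rose and 6 fell in C57BL/6 mice. Of all genes 4.71%, 12.1% and 16.2% were called in these strains in that fit. At Af 96 h with ozone in C57BL/6 mice Atf6, the sensor itself, fell by 2.58 ± 0.50 (adjusted p = 6.38e-05), and by 1.32 in the spike-adjusted fit (adjusted p = 0.0167).

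Of 18 targets of ATF4 at Af 24 h in the spike-adjusted fit, 1 rose and 0 fell in SP-D-/- mice, 2 rose and 0 fell in BALB/c mice and 6 rose and 1 fell in C57BL/6 mice. Of all genes 3.5% rose and 3.67% fell in SP-D-/- mice, 5.18% and 3.79% in BALB/c mice, and 7.45% and 8.5% in C57BL/6 mice. With all arrays 1, 2 and 4 of the 18 rose in these strains and 0 fell, where 1.6%, 3.92% and 6.4% of all genes rose. Cebpb, also a general inflammatory transcription factor, rose by 1.24 ± 0.32 in SP-D-/- mice (limma adjusted p = 0.00676) and 1.42 ± 0.34 in C57BL/6 mice (adjusted p = 0.00226) in the spike-adjusted fit, and Slc7a5, an amino acid transporter, by 1.19 ± 0.34 in BALB/c mice (adjusted p = 0.0153) and 1.09 ± 0.30 in C57BL/6 mice (adjusted p = 0.0087). All 4 were called with all arrays too (1.06 to 1.56, adjusted p between 0.000569 and 0.0118). Ddit3 and Trib3, targets on the same branch, were not called there in that fit. Of 10 cytosolic heat shock genes, at most 1 was called in any within-strain comparison of either fit.

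Markers of other cells moved with these comparisons. At Af 96 h with ozone, markers of goblet cells rose in 6 of 9 cases in both strains in the spike-adjusted fit (2.42% of all genes called in SP-D-/- and 16.9% in C57BL/6 mice). Their mean log2 level was 7.47 to 9.39 in SP-D-/- mice, against 5.63 to 6.12 after ozone alone. In C57BL/6 mice it was 7.56 to 9.97, against 5.56 to 6.52. The ranges of mean marker level given here are over all arrays of a group, doubted ones included. The plasma cell list was at 5.72 to 6.54 in SP-D-/- mice at Af 96 h with ozone against 5.58 to 6.17 after ozone alone. There 0 of 7 markers and 2.58% of all genes were called by limma with all arrays. At Af 168 h in C57BL/6 mice the list was at 6.43 to 7.43 against 6.12 to 6.34 in air, with 1 of 7 risen. Of all genes 1.09% rose there with all arrays and 3.62% in the spike-adjusted fit. Club cell markers fell at Af 24 h in the spike-adjusted fit, 6 of 6 in SP-D-/- mice. In BALB/c and in C57BL/6 mice 5 of 6 fell. Of all genes 3.67% fell there in SP-D-/-, 3.79% in BALB/c and 8.5% in C57BL/6 mice. The mean level of the club cell markers was 9.39 to 11.04 in SP-D-/- mice against 11.61 to 11.88 in air. It was 6.29 to 9.90 in BALB/c mice against 11.07 to 11.51, and 9.26 to 11.12 in C57BL/6 mice against 11.31 to 11.64. The BALB/c Af 24 h range includes the 2 doubted arrays, which the spike-adjusted fit leaves out. The 4 endothelial markers all fell in C57BL/6 mice at Af 96 h with ozone with all arrays (5.69 to 7.17, against 8.11 to 8.76 after ozone alone). So did 3 of 4 type I cell markers in the same fit. The spike level averaged 11.92 there, against 10.41 after ozone alone. Of all genes 19.2% fell in that comparison and fit. The actin difference was higher than in air at Af 24 h in SP-D-/- mice (2.54 against 1.88) and in C57BL/6 mice (2.84 against 1.59) and at Af 168 h in SP-D-/- (2.57 against 1.88), BALB/c (2.83 against 1.71) and C57BL/6 mice (2.58 against 1.59), each at an adjusted exact permutation p of 0.034, and it did not differ beyond the spread at Af 96 h with ozone in SP-D-/- mice (2.70 against 2.75, adjusted p = 0.911). The part of these shifts in the changes of the members was not tested.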

How the data were processed

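Lung RNA was amplified with the NuGEN system and hybridized to HT Mouse430PM arrays, per the labels' protocols. The deposited values of 45141 probe sets on 89 arrays are log2 signals that the authors had normalized to the same median of 4.904 on every array. The sources used here do not name the software. Replicate numbers are the only sign that arrays are separate mice, so p-values measure the spread between samples, and the number of arrays limits the precision.

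Probe sets were named through the platform annotation (28898 with 1 gene, 551 with several, 15692 with none). Each of 17097 genes took the probe set with the highest mean, and a gene was tested where at least 4 arrays exceeded log2 4.4481, the 40th percentile of the whole table, which kept 15065 genes. limma 3.58.1 (R 4.3.3) fitted the 18 group means on the 89 arrays, with 31 contrasts and Benjamini-Hochberg adjustment over the genes. Changes are in log2 units, ± SE. A gene was called at an adjusted p under 0.05. The spike-adjusted fit left out 6 arrays (Sftpd under 9 in a wild-type label or above 8 in an SP-D-/- label, or a position by 40 strain genes on the wrong side) and added the mean of 9 spike probe sets. Pair and array-measure correlations used deviations from group means and 100000 permutations within groups, adjusted over the members or pairs. Array measures were compared between groups by two-sided exact permutation tests. Motifs and relations were computed in Python 3.11.15 with scipy 1.17.1. The fit was tested on simulated data.

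The members and the gene lists were chosen with earlier results of these data known. All 10 members are named. Of the other lists the rule takes up to 3 called genes with the largest change per comparison, and of like genes the 5 closest. The array values of Manf were given after they were seen. Alternatives were cyclic loess, no filter, averaged probe sets, only the groups compared, the replicate number as a block, the doubted arrays left out, the spike level, the actin difference and each array left out.

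Replicate numbers were shared between groups. Deviations from group means correlated above 0.1 in every same-numbered pair in 1 comparison, C57BL/6 Af 168 h with ozone against Af 168 h with air (4 pairs, mean r = 0.34, lowest 0.26, other numbers -0.06), and the block changed no call there.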

Additional observations from a re-analysis of the deposited data

Results flagged for a closer look

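The highest or lowest array of a group stood apart from its companions by Dixon's criterion in 21 of 170 tests of a member in a group of 4 to 6 arrays, where chance gives about 5%. On BALB/c Af 24 h replicate 4, a doubted array, Hspa5 was lowest at 7.49, and Herpud1 was lowest at 7.05 on replicate 5, also doubted. BALB/c Af 168 h with ozone replicate 6, doubted as well, was lowest for Dnajb9 (8.10) and Xbp1 (7.32). C57BL/6 Af 168 h with ozone replicate 5, the last doubted array among these, was lowest for Creld2 (5.13).

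Further such values lay on 6 arrays with spike levels between 11.68 and 12.40. SP-D-/- Af 24 h replicate 1 (spike level 12.34) was lowest for Creld2 (7.25) and Xbp1 (7.00) and highest for Trib3 (6.59). BALB/c Af 96 h with ozone replicate 1 (12.29) was lowest for Hspa5 (8.13), Dnajb9 (7.59) and Xbp1 (7.53). C57BL/6 ozone alone replicate 5 (11.90) was lowest for Sdf2l1 (4.93) and Creld2 (6.56) and highest for Trib3 (5.85). SP-D-/- ozone alone replicate 5 (12.24) was lowest for Xbp1 (7.73), as was SP-D-/- Af 96 h with ozone replicate 4 (11.68, Xbp1 7.86). C57BL/6 Af 24 h replicate 1 (12.40) was highest for Dnajb9 (10.30). The part of the spike level in these values was not tested array by array.

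Of the remaining values, Hsp90b1 was highest at 10.89 on C57BL/6 Af 168 h with air replicate 6 (spike level 11.21). Herpud1 was highest at 9.35 on C57BL/6 Af 96 h with ozone replicate 6 (11.79). Xbp1 was highest at 8.84 on BALB/c air replicate 1 (11.54), and Sdf2l1 was lowest at 4.02 on SP-D-/- air replicate 2 (12.04). The spike levels 11.79 and 12.04 lie within the range given above for the arrays with high spike levels.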

How the results depend on the processing

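Of 310 counts of members called under 10 alternative settings, 274 stayed within 1.5 times the count with all arrays and 36 moved, and of 190 changes of single members 135 kept their direction and side of the threshold, 17 lost a call, 35 gained one and 3 reversed. Filtering on low signal changed none of them. Many of the counts were 0 with all arrays, and a count that stayed could still rest on another member. At Af 96 h with ozone in C57BL/6 mice the 1 call was of Hspa5, lower, with all arrays. In the spike-adjusted fit the 1 call was of Hsp90b1, higher. Averaging all probe sets of a gene turned Hsp90b1 at Af 96 h with ozone to -0.84 in C57BL/6 mice (limma adjusted p = 0.0441) and to -0.0028 in SP-D-/- mice (adjusted p = 0.997), the second probe set having the opposite sign. With the spike level and the actin difference as covariates Hspa5 in C57BL/6 mice at Af 96 h with ozone was 0.0084 (adjusted p = 0.992).

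The counts that moved were these. C57BL/6 Af 24 h against air, with 1 call, had 0 under cyclic loess, with only the groups compared, with the spike level, and in the spike-adjusted fit with or without the actin difference or the replicate block. C57BL/6 Af 96 h with ozone, with 1, had 3 under cyclic loess, with averaged probe sets, with only the groups compared and with the replicate block, and 2 without the doubted arrays. C57BL/6 Af 168 h, with 0, had 2 with only the groups compared and 1 in the spike-adjusted fit, with or without the block. SP-D-/- Af 24 h, with 0, had 1 with only the groups compared and in every fit with the spike level. SP-D-/- Af 96 h with ozone, with 1, had 0 with averaged probe sets and with only the groups compared. SP-D-/- Af 168 h with ozone against air, with 0, had 1 in every fit without the doubted arrays. BALB/c Af 24 h, with 1, had 2 with averaged probe sets and in the spike-adjusted fit, with or without the block, and 0 with only the groups compared, without the doubted arrays, with the spike level alone and with the actin difference added. BALB/c Af 168 h against Af 24 h, with 0, had 1 with the replicate block (Ddit3, -0.73, adjusted p = 0.028) and 2 with the spike level. SP-D-/- against C57BL/6 had 2 with only the groups compared at Af 96 h with ozone, against 0, and 0 at Af 168 h with ozone, against 1. The causes were not tested.

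The replicate number as a block moved no other count with all arrays. Leaving out 1 array at a time gave 0 to 1 calls for C57BL/6 Af 24 h, 1 to 3 for C57BL/6 Af 96 h with ozone, 0 to 1 for SP-D-/- Af 96 h with ozone, 0 to 2 for SP-D-/- Af 168 h with ozone against air, 0 to 2 for BALB/c Af 24 h, 0 to 3 for BALB/c Af 168 h against Af 24 h, and for SP-D-/- against C57BL/6 0 to 1 after ozone, 0 to 2 at Af 96 h with ozone and 0 to 1 at Af 168 h with ozone. Creld2 in BALB/c mice at Af 24 h ran between -0.02 and 0.72. The range was 0.54 to 0.94 for Pdia4 in C57BL/6 mice at Af 24 h, -1.96 to -1.44 for Hspa5 in C57BL/6 mice and 0.83 to 1.49 for Hsp90b1 in SP-D-/- mice at Af 96 h with ozone, 0.57 to 1.04 for Trib3 in BALB/c mice at Af 24 h and -2.51 to -1.59 for Dnajb9 between SP-D-/- and C57BL/6 mice.

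Sdf2l1 and Pdia4 have signals near the detection filter, which limits their precision. The leave-one-array-out runs of the spike-adjusted fit and its form with a block were chosen after seeing the data.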
